A study of Mus musculus with 6 samples.

Results

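The 10 genes described here are known for their expression in fibro-adipogenic progenitors, which are stromal cells of skeletal muscle: Pdgfra, Osr1, Fbn1, Mfap5, Hsd11b1, Ly6a, Cd34, Dpp4, Pi16 and Gsn. They were chosen by name from the biology of these cells, but with earlier results of these data known. They are therefore described and not tested as a list. All 10 had a row among the 16289 genes of the count table and passed the filter on low counts, which kept 16259 genes. RNA-seq libraries were made from whole tibialis anterior, the muscle over the shin, of wildtype C57BL/6J male mice aged 12 weeks. In both groups the muscle had been injected with glycerol, which destroys fibres and is followed by regeneration with fat deposits, and was taken 14 days later. The 3 glycerol mice had a control treatment whose nature the labels do not give, and the 3 glycerol+melatonin mice had melatonin, a hormone of the pineal gland, with no dose or route given. There was no uninjured group, so every value below describes injured muscle.

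Fibro-adipogenic progenitors lie between muscle fibres and around vessels. After injury they multiply, lay down matrix and secrete factors that muscle stem cells need, and in glycerol-injured muscle they are the source of the fat cells that appear between fibres. The PDGF receptor alpha defines them, and signalling through it drives their growth and fibrous fate. Single-cell work divides them into an adventitial state rich in Dpp4 and Pi16 and an interstitial state that lacks Dpp4. Several of the 10 genes are not theirs alone: Cd34 and Ly6a are also made by endothelium, Cd34 by resting muscle stem cells, and Gsn by many cell types.

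Library totals ran from 39310361 to 48879045 counts, and each of the 10 genes had at least 102 counts in each library. For Dpp4, at 102 to 245 counts, counting error adds to the spread between mice. Values are CPM, counts scaled to a common total of 1e6 with TMM factors, which set the libraries to a common level over most genes. Skeletal fibre genes made up 73490 to 127800 CPM over 8 markers in every library. Genes of limb position were read because the RNA extraction text of the labels names a back muscle. The hindlimb regulator Tbx4 was at 4.74 to 8.01 CPM and the posterior limb gene Hoxc10 at 52.5 to 94.6 CPM. The hindlimb gene Pitx1 was at 0.766 to 3.19 CPM, Hoxc9 at 5.93 to 16.3 CPM and Hoxa11 at 2.40 to 5.32 CPM. Hoxd11 and Tbx5 were not among the genes tested. Without libraries of other muscles for comparison, these levels do not settle the tissue. In bulk tissue, fewer progenitors and less RNA per progenitor cannot be told apart.

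Of the 10 markers, 6 stood lower in glycerol+melatonin muscle by a like amount (Hsd11b1, Fbn1, Dpp4, Gsn, Pdgfra and Osr1, between 1.57- and 1.90-fold), and 4 lay near the glycerol level (Mfap5, Ly6a, Pi16 and Cd34). None of the 10 passed edgeR's quasi-likelihood test at a Benjamini-Hochberg adjusted p under 0.05 over all genes, a threshold that 0.0738% of all genes passed. At an unadjusted edgeR p under 0.05, 6 of the 10 were lower and 0 higher, where 9.39% of all genes were lower at that level. In 5 of the 10 (Pdgfra, Osr1, Fbn1, Hsd11b1 and Dpp4) every glycerol+melatonin library lay under every glycerol library, as it did for 12.5% of all genes, and 0 showed the opposite order, as 13.6% of all genes did. The median log2 fold change of the 10 was -0.68, against 0.016 over all genes tested. DESeq2 passed 3 of them as lower (Osr1, Fbn1 and Hsd11b1), where it passed 2.56% of all genes as lower. Limma-voom passed none (0 of 10), and with sample weights it passed Fbn1 alone, where it passed 0.609% of all genes as lower.

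**Figure D1:**
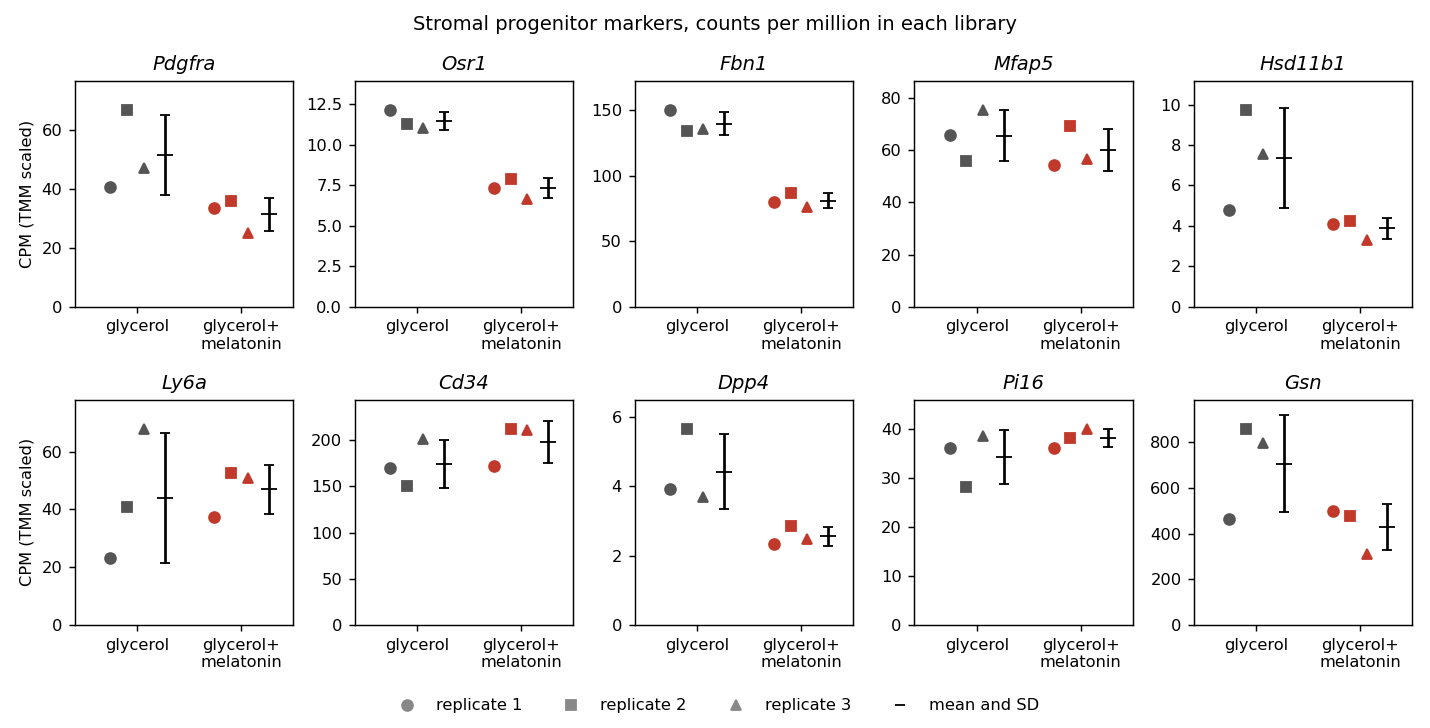
CPM (TMM scaled, linear axis from 0) of the 10 markers in each library, grey for glycerol and red for glycerol+melatonin, with the marker shape giving the replicate number and the black bar the mean and SD of 3 mice. Fbn1 and Osr1 form tight groups that lie apart, while Cd34, Ly6a, Pi16 and Mfap5 overlap between groups.

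Scaling matters to these counts. With library size alone, the log2 fold changes of all genes had a median of 0.23, a shift of 0.21, and 2 of the 10 (Fbn1 and Hsd11b1) were lower at an unadjusted edgeR p under 0.05, as were 3.59% of all genes in that fit. Relative to the median of all genes, the median of the 10 was -0.70 with either scaling. That match follows from the arithmetic, because a change of scaling shifts all genes by nearly the same amount. For 4 of the 10 genes the top value came from glycerol replicate 2, and without it 3 (Osr1, Fbn1 and Hsd11b1) were lower at an unadjusted edgeR p under 0.05, as were 4.85% of all genes. Glycerol+melatonin replicate 3 was the lowest library for 5 of the 10, and without it 5 were lower at that level, as were 7.26% of all genes.

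**Figure D2:**
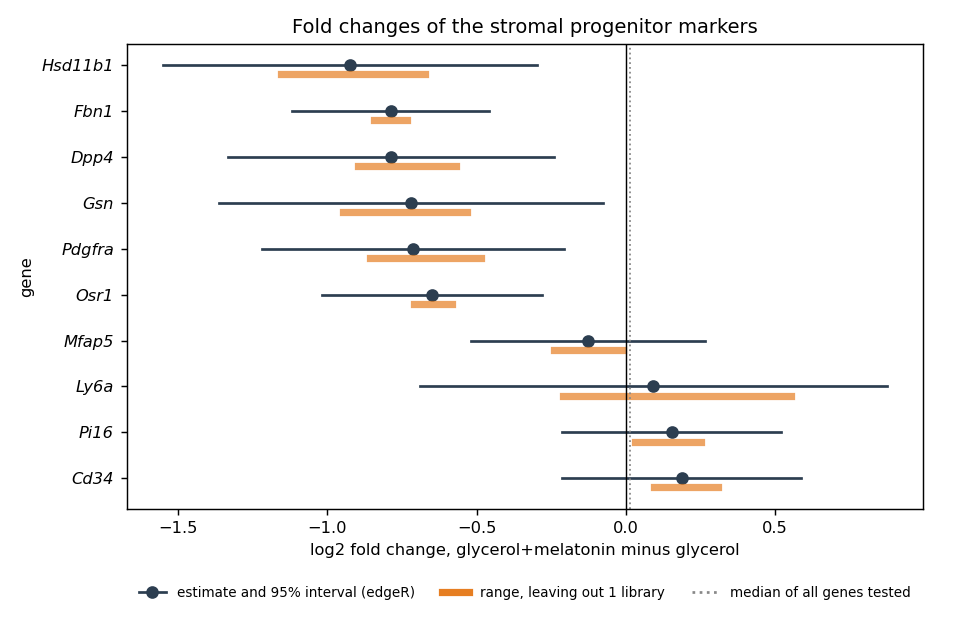
Log2 fold change (glycerol+melatonin minus glycerol) of each marker with its 95% interval from edgeR in blue, the range of estimates when 1 of the 6 libraries was left out in orange, and the median of all genes tested as a dotted line. The intervals of 6 genes lie below 0, and those of Mfap5, Ly6a, Pi16 and Cd34 cross it.

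Pdgfra (ENSMUSG00000029231, chromosome 5, 75152292 to 75198215, GRCm38) encodes the receptor tyrosine kinase by which these cells are sorted. It was at 40.6, 66.5 and 47.1 CPM in the glycerol libraries 1 to 3 and at 33.3, 35.7 and 25.0 CPM in the glycerol+melatonin libraries. The groups did not overlap, but glycerol replicate 2 stood well above its group and glycerol replicate 1 lay nearer to the treated mice. The log2 fold change was -0.71 ± 0.22 (SE; edgeR adjusted p = 0.176), and -0.48 without glycerol replicate 2. Exons of Pdgfra share 456 and 166 bases with the gene models Gm42802 and Gm42803 on the other strand, and the sources used here do not give whether counting used strand.

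Other genes of the PDGF system did not share one direction, with 3 of 6 tested below 0, 0 passing, and a median of -0.073 that was 0.14 with library size alone. The sister receptor Pdgfrb, found on pericytes as well as progenitors, was at 142 ± 8.37 and 116 ± 26.5 CPM (mean ± SD, n = 3 per group; log2 fold change -0.29 ± 0.19). The ligand Pdgfb, made largely by endothelium, was at 53.1, 56.4 and 62.4 CPM in the glycerol mice, against 72.9, 82.9 and 95.4 CPM in the glycerol+melatonin mice. Every treated library thus lay above every glycerol library for Pdgfb, opposite to Pdgfra (0.55 ± 0.16, edgeR adjusted p = 0.164). The ligand Pdgfa, the classic partner of the alpha receptor, was at 0.29 ± 0.16, Pdgfc at -0.40 ± 0.27, Pdgfd at 0.14 ± 0.34 and the receptor-like gene Pdgfrl at -0.54 ± 0.27.

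Osr1 (ENSMUSG00000048387, chromosome 12, 9570116 to 9581500) encodes a zinc finger transcription factor that marks progenitors activated by injury. It was at 12.1, 11.3 and 11.05 CPM in the glycerol mice, against 7.35, 7.92 and 6.68 CPM in the glycerol+melatonin mice. The gap between the groups exceeded the range within either, and glycerol replicate 2 did not stand out as it did for Pdgfra. The log2 fold change was -0.65 ± 0.16 (edgeR adjusted p = 0.141, DESeq2 adjusted p = 0.0289) and stayed between -0.71 and -0.58 when any 1 library was left out. Its relative Osr2 was at 5.26 ± 2.03 and 4.47 ± 0.460 CPM, with overlapping groups (-0.23 ± 0.30).

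Fbn1 (ENSMUSG00000027204, chromosome 2, 125300594 to 125507993) encodes fibrillin, the backbone of the microfibrils that carry elastin and hold latent TGF-beta in the matrix. Its levels were 150.0, 134 and 136 CPM in the glycerol mice, against 79.9, 87.1 and 76.1 CPM in the glycerol+melatonin mice. It had the smallest p of the 10 genes, rank 74 among all genes, and each treated library was far below each glycerol library. The log2 fold change was -0.79 ± 0.14 (edgeR adjusted p = 0.111, DESeq2 adjusted p = 5.29e-04, 0.0455 by limma-voom with sample weights), and it stayed between -0.84 and -0.73 when any 1 library was left out. With a correction for transcript length in edgeR, it was outside that range, at -0.59 ± 0.14. Fbn1 shares 2442 exon bases with the gene model Gm9913 on the other strand.

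Mfap5 (ENSMUSG00000030116, chromosome 6, 122505845 to 122529290) encodes a small glycoprotein that binds fibrillin in the same microfibrils. It was at 65.8, 56.0 and 75.4 CPM in the glycerol mice, against 54.6, 69.4 and 56.6 CPM in the glycerol+melatonin mice. The groups overlapped, and the log2 fold change of -0.13 ± 0.17 had a 95% interval from -0.52 to 0.27 (0.081 with library size alone). Within a library, Fbn1 had 2.28, 2.40 and 1.80 counts per Mfap5 count in the glycerol mice, against 1.46, 1.25 and 1.34 in glycerol+melatonin. Such a ratio, chosen after the values were seen, does not depend on scaling between libraries, and here the groups did not overlap.

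Among 17 other microfibril and elastic fibre genes, 0 passed and 0 had groups apart, with 14 below 0 at a median of -0.16 (5 below 0 and a median of 0.072 with library size alone). The leading gene was Efemp1, an extracellular glycoprotein of the fibulin family, at -0.61 ± 0.24 (edgeR adjusted p = 0.223), followed by Fbln1 at -0.29 ± 0.18 and Ltbp4, which tethers latent TGF-beta, at -0.30 ± 0.20. Fbn2, the second fibrillin, was at 3.79 ± 1.301 and 3.78 ± 0.875 CPM (-0.0029 ± 0.3023). Mfap2, the closest relative of Mfap5, was at 40.6 ± 2.93 and 45.3 ± 7.21 CPM (0.16 ± 0.16).

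Hsd11b1 (ENSMUSG00000016194, chromosome 1, 193221634 to 193264075) encodes the enzyme that turns inactive glucocorticoid into the active hormone inside the cell. It was at 4.79, 9.72 and 7.57 CPM in the glycerol mice, against 4.09, 4.24 and 3.30 CPM in the glycerol+melatonin mice. The treated mice were tightly grouped, the glycerol mice were not, and glycerol replicate 1 lay just above the treated range. This was the lowest log2 fold change of the 10 genes, -0.92 ± 0.27 (edgeR adjusted p = 0.168, DESeq2 adjusted p = 0.0435), or -0.67 without glycerol replicate 2.

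Partners of this enzyme were looked at by name. H6pd, which supplies its cofactor inside the endoplasmic reticulum, was at 59.2, 81.2 and 69.6 CPM in the glycerol mice, against 52.6, 54.4 and 54.3 CPM in the glycerol+melatonin mice (-0.38 ± 0.16, edgeR adjusted p = 0.238). The glucocorticoid receptor Nr3c1 was at 60.7, 73.5 and 52.6 CPM in the glycerol mice, against 44.5, 52.1 and 40.9 CPM in the glycerol+melatonin mice (-0.44 ± 0.18, edgeR adjusted p = 0.226). For both, the groups did not overlap, with a narrow gap for the receptor. Hormone-induced genes gave no common direction: Zbtb16 was at -0.59 ± 0.28, Tsc22d3 at -0.15 ± 0.27, Fkbp5 at -0.067 ± 0.325 and Per1 at 0.21 ± 0.17. Of the 8 genes in this list, 0 passed and 6 were below 0 (4 with library size alone), with a median of -0.27.

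Ly6a (ENSMUSG00000075602, chromosome 15, 74994877 to 74998031) encodes the membrane-anchored antigen Sca-1, used with Pdgfra to sort these cells. Its levels were 23.3, 40.7 and 67.9 CPM in the glycerol mice, against 37.3, 52.7 and 50.8 CPM in the glycerol+melatonin mice. The glycerol mice alone spanned a wider range than all treated mice, so the log2 fold change of 0.093 ± 0.343 carries a 95% interval from -0.69 to 0.88 and changed sign between -0.21 and 0.55 as libraries were left out. Its relatives Ly6c1 (0.30 ± 0.23) and Ly6e (0.27 ± 0.24) were abundant, at 135 ± 26.7 and 222 ± 49.2 CPM in glycerol. Ly6c2 stood at 0.42 ± 0.21 and Ly6h, at a mean of 0.728 CPM in glycerol, at 0.56 ± 0.33. All 5 tested Ly6 relatives were above 0, with 0 passing. Genes of this family are alike in sequence, and the sources used here do not give how reads matching several copies were counted.

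Cd34 (ENSMUSG00000016494, chromosome 1, 194938819 to 194961279) encodes a sialomucin on progenitors, endothelium and resting muscle stem cells. It was at 170.1, 151 and 202 CPM in the glycerol mice, against 172, 212 and 211 CPM in the glycerol+melatonin mice. The ranges overlapped, and the log2 fold change was 0.19 ± 0.18 (95% interval -0.21 to 0.59). Per 100 Cd34 counts of the same library, Pdgfra had 23.9, 44.1 and 23.3 counts in the glycerol mice, against 19.4, 16.8 and 11.8 in glycerol+melatonin, with no overlap between the groups. This pair was chosen after the values were seen. Cd34 shares 148 exon bases with Gm16897 on the other strand, which was at 1.498 ± 0.244 and 1.08 ± 0.422 CPM.

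Dpp4 and Pi16 both mark adventitial progenitors, and their values are set side by side here. Dpp4 (ENSMUSG00000035000, chromosome 2, 62330073 to 62412231), a peptidase of the cell surface, was at 3.90, 5.64 and 3.67 CPM in the glycerol mice, against 2.33, 2.86 and 2.47 CPM in the glycerol+melatonin mice. The groups did not overlap, and the log2 fold change was -0.79 ± 0.24 (edgeR adjusted p = 0.172), or -0.57 without glycerol replicate 2. Pi16 (ENSMUSG00000024011, chromosome 17, 29317680 to 29330593), a peptidase inhibitor, was at 36.0, 28.0 and 38.5 CPM in the glycerol mice, against 36.1, 38.1 and 39.9 CPM in the glycerol+melatonin mice. Its treated libraries lay within or just above the upper part of the glycerol range, at 0.16 ± 0.16 (95% interval -0.21 to 0.52). Glycerol replicate 2 was the highest library for Dpp4 and the lowest for Pi16. Per 100 Pi16 counts of the same library, Dpp4 had 10.8, 20.1 and 9.55 counts in the glycerol mice, against 6.45, 7.51 and 6.18 in glycerol+melatonin, with no overlap; this pair too was chosen after the values were seen. Of 6 tested relatives of Dpp4, 5 were below 0 with a median of -0.26 (-0.038 with library size alone), and 0 passed. Prep was at -0.31 ± 0.14, Dpp9 at -0.25 ± 0.15, Dpp7 at 0.44 ± 0.23 and the fibroblast activation protein gene Fap at -0.26 ± 0.22.

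The 250 bases upstream of the RefSeq starts of Fbn1, Pdgfra, Dpp4 and Pi16 (RefSeq on GRCm38.p6) are shown to set promoters of markers that stood lower beside that of a marker that did not. They cover chr2:125506439-125506688 on the minus strand, chr5:75152001-75152250 on the plus strand, chr2:62412232-62412481 on the minus strand and chr17:29318632-29318881 on the plus strand, each written in the direction of transcription. The Pdgfra window ends ahead of the annotated gene start at 75152292, and the bases after its RefSeq start were not found in an annotated transcript of the gene. Capitals mark each match, on either strand, to any of 8 motifs: the GC box spelled GGGCGG, the TATA motif spelled TATAAA, the CCAAT motif, the AP-1 motif, the E-box spelled CANNTG, the SMAD box, the glucocorticoid receptor motif spelled AGAACA and the TEAD motif spelled GGAATG. The AP-1 motif was searched as TGANTCA. The palindrome GTCTAGAC stood for the SMAD box. The matches shown do not overlap each other.
Fbn1: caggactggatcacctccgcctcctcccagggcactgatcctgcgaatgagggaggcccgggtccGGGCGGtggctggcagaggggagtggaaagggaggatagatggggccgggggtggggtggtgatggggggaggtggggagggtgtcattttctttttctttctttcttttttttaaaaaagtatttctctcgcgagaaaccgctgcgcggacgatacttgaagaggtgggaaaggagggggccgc
Pdgfra: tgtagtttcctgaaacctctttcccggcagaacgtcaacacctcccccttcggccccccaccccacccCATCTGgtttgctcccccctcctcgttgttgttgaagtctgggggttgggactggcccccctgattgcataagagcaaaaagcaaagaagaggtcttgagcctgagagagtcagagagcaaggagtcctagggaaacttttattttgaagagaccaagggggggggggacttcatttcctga
Dpp4: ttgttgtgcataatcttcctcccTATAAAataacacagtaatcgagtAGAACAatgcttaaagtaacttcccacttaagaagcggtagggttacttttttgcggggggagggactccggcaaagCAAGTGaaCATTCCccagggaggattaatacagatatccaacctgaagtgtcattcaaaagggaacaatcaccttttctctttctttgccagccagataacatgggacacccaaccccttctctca
Pi16: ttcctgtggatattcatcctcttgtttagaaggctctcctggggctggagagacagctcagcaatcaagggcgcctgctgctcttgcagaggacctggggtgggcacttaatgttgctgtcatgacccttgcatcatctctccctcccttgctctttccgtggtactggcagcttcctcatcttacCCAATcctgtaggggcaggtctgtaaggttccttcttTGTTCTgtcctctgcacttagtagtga

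Fbn1 held 1 GC box, 59.2% GC and 13 CpG dinucleotides, Pdgfra 1 E-box and 54.4% GC, Dpp4 1 match each to TATA, the glucocorticoid receptor motif, the E-box and TEAD at 43.6% GC, and Pi16 a CCAAT motif and a glucocorticoid receptor motif at 52.4% GC. Among all 32851 promoter windows of the same length, 32.7% held a GC box, 33.8% CCAAT, 66.2% an E-box, 16.1% a glucocorticoid receptor motif, 12.6% TEAD, 12.4% TATA, 6.75% AP-1 and 0.167% a SMAD box. Of the 7 markers with a window, which also included Cd34, Hsd11b1 and Gsn, none held an AP-1 motif or SMAD box. Gsn had several windows, and for some of them, as for Pdgfra, the bases after the start were not found in an annotated transcript. Cd34 held none of the 8 motifs. No motif was found in all of the 5 markers with a window that stood lower (Fbn1, Pdgfra, Dpp4, Hsd11b1 and Gsn).

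Gsn (ENSMUSG00000026879, chromosome 2, 35256380 to 35307892) encodes gelsolin, an actin-severing protein with a secreted and a cytosolic form, and is the most abundant transcript of the 10. It was at 464, 857 and 796 CPM in the glycerol mice, against 497, 477 and 311 CPM in the glycerol+melatonin mice. Glycerol replicate 1 lay below 2 of the 3 treated mice, so the groups overlapped, and treated replicate 3 was the lowest of all. The log2 fold change was -0.72 ± 0.28 (edgeR adjusted p = 0.222), or -0.56 without glycerol replicate 2 and -0.53 without glycerol+melatonin replicate 3. Relatives that cap or sever actin did not follow one direction, with 4 of 8 below 0 and 0 passing: Avil was at 0.77 ± 0.25, Capg at 0.49 ± 0.21 and Scin at -0.54 ± 0.27.

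**Figure D3:**
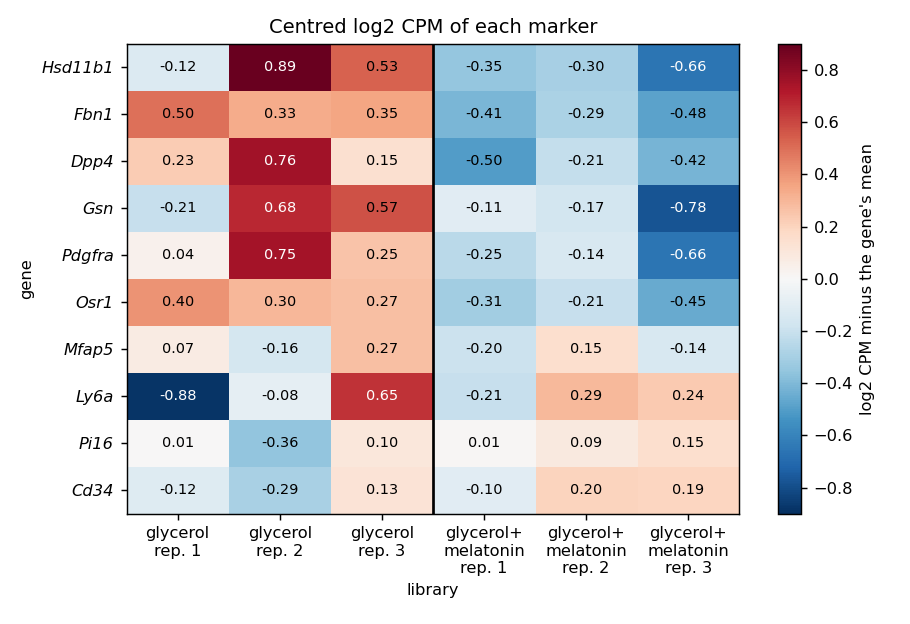
Log2 CPM of each marker (rows, ordered by fold change) in each library (columns) minus the gene's mean over the 6 libraries, with red above and blue below the mean. Fbn1 and Osr1 are high in all 3 glycerol libraries, Hsd11b1, Pdgfra, Gsn and Dpp4 are highest in glycerol replicate 2, and the lower 4 rows show no common split by treatment.

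The 10 genes thus varied in more than one pattern among mice. Fbn1, Osr1, Dpp4 and Pdgfra were above their mean in each glycerol mouse. Fbn1 and Osr1 were so by a like amount, at 0.27 to 0.50 on the centred log2 CPM scale. Pdgfra, Hsd11b1, Gsn and Dpp4 reached 0.68 to 0.89 in glycerol replicate 2 and lay between -0.21 and 0.23 in glycerol replicate 1. Pi16 and Cd34 had their lowest value in glycerol replicate 2, at -0.36 and -0.29. Ly6a ran from -0.88 in glycerol replicate 1 to 0.65 in glycerol replicate 3.

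Per kilobase of the longest annotated transcript, the levels in glycerol muscle ran from Gsn at 266 ± 79.8 CPM per kb through Cd34 (56.8 ± 8.39), Ly6a (46.0 ± 23.5), Mfap5 (26.4 ± 3.90), Fbn1 (11.7 ± 0.734), Pi16 (8.55 ± 1.37), Pdgfra (7.52 ± 1.97), Osr1 (5.71 ± 0.285) and Hsd11b1 (3.72 ± 1.25) to Dpp4 at 0.836 ± 0.204. Neighbours whose ranges over mice overlapped were Cd34 with Ly6a, Ly6a with Mfap5, Pi16 with Pdgfra, and Pdgfra with Osr1. In glycerol+melatonin muscle the order was the same except that Pi16 (9.53 ± 0.476 CPM per kb) stood above Fbn1 (6.77 ± 0.468), with ranges apart in both groups. In raw counts of the same library, Fbn1 had 4.16, 4.79 and 3.53 counts per Pi16 count in the glycerol mice, against 2.21, 2.29 and 1.91 in glycerol+melatonin. In 7 such pairs, all chosen after the values were seen, a marker that stood lower was set over a marker that did not. This choice makes separation likely, and 6 of the 7 had groups apart. The exception was Gsn per Pi16 count, at 12.9, 30.6 and 20.7 without melatonin and 13.8, 12.5 and 7.80 with it.

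Of 19 other stromal progenitor and fibroblast genes tested, 0 passed by edgeR, and 8 were lower and 0 higher at an unadjusted edgeR p under 0.05. Below 0 were 16 of the 19, with a median of -0.42 (12 of 19 and -0.20 with library size alone), where 48.3% of all genes were below 0. The basement membrane chain Lama2 was at 51.7, 75.1 and 61.2 CPM in the glycerol mice, against 42.8, 33.9 and 26.0 CPM in the glycerol+melatonin mice (-0.87 ± 0.22, edgeR adjusted p = 0.141). The collagen-binding proteoglycan Dcn was at 501, 822 and 646 CPM in the glycerol mice, against 397, 380 and 345 CPM in the glycerol+melatonin mice (-0.81 ± 0.21). The groups did not overlap for either gene, and Vit, an extracellular matrix gene, stood at -1.19 ± 0.37 from a low level. Hic1, a transcription factor that marks quiescent mesenchymal progenitors, was at 29.5 ± 1.21 and 29.7 ± 0.699 CPM (0.0082 ± 0.1325, chosen after its values were seen).

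The 2 progenitor states have lists of their own. Of 12 interstitial genes, 5 of which (Penk, Smoc2, Cxcl14, Lum and Col15a1) are also among the 19 above, 10 were below 0 with a median of -0.56 (-0.36 with library size alone), led by the methyltransferase gene Inmt (-1.03 ± 0.30), the opioid precursor gene Penk (-0.63 ± 0.20) and the matricellular gene Smoc2 (-0.79 ± 0.29), and 0 passed. Of 11 other adventitial genes, 7 were below 0 with a median of -0.23 (-0.019 with library size alone), and 0 passed. That list was mixed, with the procollagen enhancer Pcolce2 at 5.65 ± 1.79 and 3.00 ± 0.402 CPM (-0.91 ± 0.27) and the annexin Anxa3 at 26.3 ± 3.68 and 38.3 ± 5.73 CPM (0.54 ± 0.18). The hyaluronan synthase Has1 was at 0.0494, 0.184 and 0.368 CPM in the glycerol mice, against 0.617, 1.84 and 0.851 CPM in the glycerol+melatonin mice (2.45 ± 0.66, edgeR adjusted p = 0.150). Its large fold change starts from a level near 0, where few reads were counted. The difference between the lists was not tested.

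**Figure D4:**
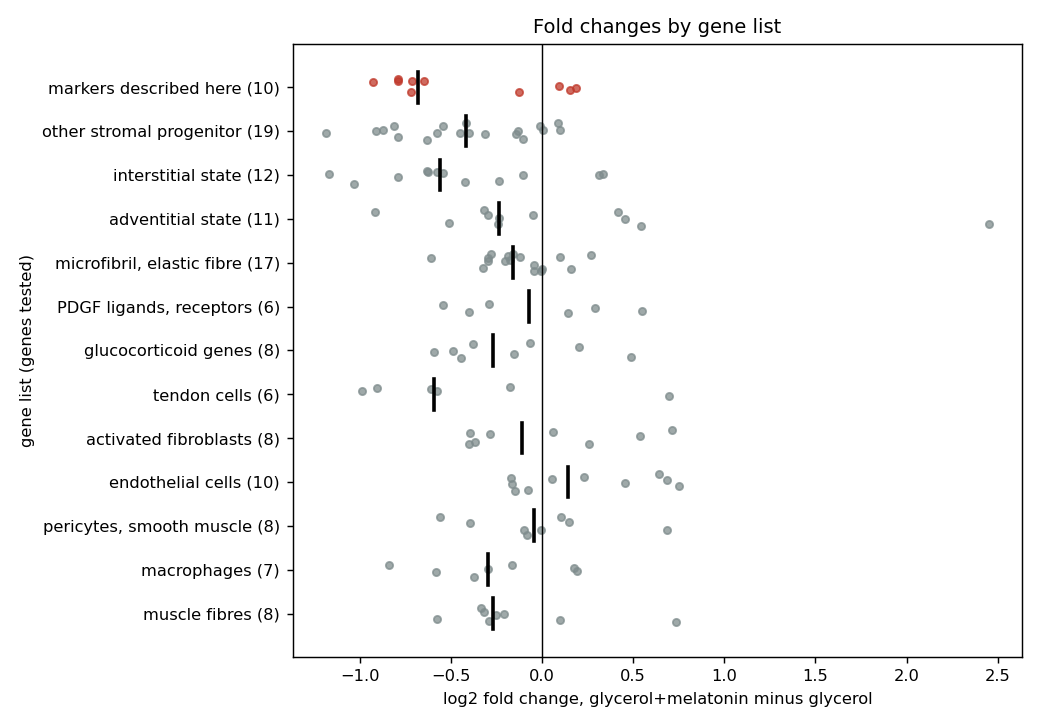
Log2 fold changes (glycerol+melatonin minus glycerol) of single genes (points) by gene list, with the number of genes tested in brackets and the list's median as a black bar; the 10 markers are in red. The interstitial list shares 5 genes with the list of 19 other stromal genes. The medians of the stromal progenitor lists lie between -0.68 and -0.23, and the endothelial median lies at 0.15. Medians of tendon cells (-0.59), macrophages (-0.30), muscle fibres (-0.27) and glucocorticoid genes (-0.27) lie within the stromal range.

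Markers of other cells in the muscle were read beside these values, and their part in them was not tested. Of 10 endothelial markers, 6 were above 0 (10 with library size alone) and 0 at 0 counts in any library, with a summed level of 1146 to 1311 CPM in the glycerol mice, against 1156 to 1796 CPM in glycerol+melatonin, highest in replicate 3. Egfl7 (0.75 ± 0.22), Esam (0.64 ± 0.21) and Cldn5 (0.69 ± 0.29) led that list, while Cdh5 was at -0.16 ± 0.24. Endothelium also makes Cd34 and Ly6a, and its share in their levels was not tested. Tendon cell markers, 5 of 6 below 0, summed to 531 to 650 CPM in the glycerol mice, against 244 to 513 CPM in glycerol+melatonin. Fmod (-0.99 ± 0.32) and Thbs4 (-0.57 ± 0.24) made up most of that sum, while Scx stood at 0.70 ± 0.32. Activated fibroblast markers, 4 of 8 below 0, summed to 6762 to 6968 and 4757 to 6156 CPM. Col3a1 (-0.365 ± 0.22) and Col1a1 (-0.39 ± 0.24) made up most of that sum, while Ccn2 stood at 0.71 ± 0.25 and Cthrc1 at 0.54 ± 0.28. Pericyte and smooth muscle markers had 5 of 8 below 0, or 2 with library size alone (1325 to 1340 against 1193 to 1551 CPM), macrophage markers 5 of 7 (267 to 366 against 261 to 356 CPM), muscle stem cell markers 3 of 6 (48.0 to 54.1 against 46.6 to 54.1 CPM), fat cell markers 5 of 6 (472 to 977 against 766 to 913 CPM) and Schwann cell markers 3 of 5 (151 to 157 against 108 to 147 CPM). The 5 fat cell markers below 0 were all highest in glycerol replicate 3. Adipoq, for example, was at 10.6, 5.18 and 37.8 CPM in the glycerol mice, against 18.4, 9.65 and 6.02 CPM in glycerol+melatonin. Fabp4 made up most of the summed fat cell level and stood higher, at 0.56 ± 0.22. Muscle fibre markers had 6 of 8 below 0 and were lowest in glycerol+melatonin replicate 3, at 73490 CPM, where 5 of the 10 progenitor markers were lowest too. In each of these lists 0 genes passed by edgeR, and no marker was at 0 counts in any library. Median log2 fold changes were -0.59 for tendon cells, -0.43 for fat cells, -0.30 for macrophages and -0.27 for Schwann cells and for muscle fibres. They were -0.11 for activated fibroblasts, -0.046 for pericytes and smooth muscle, 0.10 for muscle stem cells and 0.15 for endothelium. Low medians were thus not particular to the progenitor lists.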

How the data were processed

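Raw counts of reads per gene, not normalized, were deposited by the authors as a single table. Per the submitters' processing notes, reads were handled with HISAT2 2.0, StringTie 1.3.3b, Trimmomatic 0.36, FastQC 0.11.2, bedtools 2.26.0 and DESeq2 1.12.4 on build mm10. The sources used here do not give which tool counted, its annotation, strand setting or treatment of multiply matching reads. Columns were matched to samples by treatment code and replicate number. The smallest total of a gene was 28 counts, so low genes had been removed before.

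Symbols came from GENCODE M21 (GRCm38, the assembly of mm10) for 16260 of 16289 genes. All genes were fitted with edgeR 4.0.16 (R 4.3.3; quasi-likelihood test, TMM factors, filterByExpr, no covariate) and p-values adjusted by Benjamini-Hochberg over all of them. SE is the log2 fold change divided by the root of F. Centred values used log2 CPM with a prior count of 2. The scripts were tested on simulated counts with the spread of these data. There edgeR passed 1 of 67 genes changed 1.5-fold and 11 of 67 changed 2-fold, so changes of the size seen here would mostly be missed. DESeq2 passed 6 and 27 of them, but 38 of its 132 calls were false, against 8 of 77 by edgeR. No replicates were repeats of each other (chi-square over its degrees of freedom at least 65.9), and the series' text calls them biological replicates.

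The 10 genes, the companion lists and the alternatives (other scalings and filters, DESeq2 1.42.0, limma 3.58.1, a replicate block, length and GC corrections, leaving out each library) were chosen with earlier results of these data known, so lists are described by counts and medians and not tested. Companions named from the pathway lists are the 3 smallest p-values of a list plus direct partners (such as Ly6e and Fap); from the lists of other cell types only some are named. Further members of a list are named as contrasts within it, or for their share of its sum, and were then chosen after their values were seen. These are Tsc22d3, Fkbp5, Per1, Cdh5, Scx, Col1a1 and Col3a1.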

Additional observations from a re-analysis of the deposited data

How the results depend on the processing

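Over all genes, 12 passed by edgeR. DESeq2 passed 744, limma-voom with sample weights 199, and edgeR with a length correction 7. At an adjusted p under 0.1, 59 passed, and at an unadjusted p under 0.05, 3170 did. Leaving out 1 library gave 6 to 27 genes, 6 without glycerol replicate 1 and 27 without glycerol replicate 3, with 25, 11 and 24 without glycerol+melatonin replicates 1, 2 and 3. Of the 10 markers, 0 passed by edgeR, 3 by DESeq2, 1 by limma-voom with sample weights and 6 at an unadjusted p under 0.05. Their median of -0.68 was -0.47 with library size alone and ran from -0.76 to -0.52 when 1 library was left out, with -0.52 without glycerol replicate 2. With the length correction that median was -0.57. Mfap5 changed sign with library size alone (0.081). Ly6a changed sign with the length correction (-0.14), the length and GC correction (-0.083), the length correction with replicate block (-0.062), without glycerol replicate 1 (-0.21) and without glycerol+melatonin replicate 2 (-0.00074), and ran from -0.21 to 0.55 over the libraries left out. The cause was not tested. The other 8 markers kept their direction in all 18 settings fitted.

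With the replicate block in edgeR, 0 genes passed (2991 at an unadjusted p under 0.05), and 0 when it was combined with the length correction (2675), and with the block alone 5 of the 10 markers were lower at an unadjusted edgeR p under 0.05, as were 9.4% of all genes. Same-numbered libraries did not deviate together (correlations of -0.010, -0.011 and -0.049), so the numbers were not taken to pair the mice. The number of mice limits the precision, as does counting error for markers with few counts, such as Dpp4.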

Other observations

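Genes outside the 10 were ranked by how closely their centred log2 CPM followed the mean profile of the 10 over the 6 libraries, measured as a root mean square difference, as a description with no test. That profile was at -0.0076, 0.28 and 0.33 in the glycerol libraries and at -0.24, -0.058 and -0.30 in the glycerol+melatonin libraries. The 5 closest of 13887 named genes were Sdc2 (0.0355), a heparan sulfate proteoglycan of mesenchymal cells, Snx16 (0.0356), Adamts2 (0.0462), which trims procollagen, Pot1a (0.0497) and Ms4a6c (0.0552), where the median gene was at 0.361. Sdc2 was at 42.4 and 31.3 CPM in the 2 groups (log2 fold change -0.44 ± 0.15) and Adamts2 at 58.3 and 43.1 CPM (-0.43 ± 0.16). Snx16 stood at -0.48 ± 0.19, Pot1a at -0.36 ± 0.17 and Ms4a6c at -0.43 ± 0.20. A function is given for only some of these genes, and a close pattern does not place a gene in progenitors.

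The genes closest to Pdgfra alone were Ms4a4d (0.0978), Cadps2 (0.101), Ube3c (0.104), Itih5 (0.105), which stabilises hyaluronan in the matrix, and Gid4 (0.109), where the median gene was at 0.513. Ms4a4d was at 10.7 and 6.00 CPM (-0.84 ± 0.22) and Itih5 at 92.9 and 58.2 CPM (-0.67 ± 0.23), both high in glycerol replicate 2 and low in glycerol+melatonin replicate 3 as Pdgfra was. Cadps2 had a low level, at 0.461 and 0.288 CPM (-0.67 ± 0.43). Ube3c stood at -0.645 ± 0.21 and Gid4 at -0.58 ± 0.21.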
